A study of Mus musculus with 8 samples.

Results

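The colony stimulating factors and their receptors were followed in mouse pancreatic tumours through 7 genes: the ligand genes Csf1, Il34, Csf2 and Csf3 and the receptor genes Csf2ra, Csf2rb and Csf3r. These genes were chosen by symbol, and all 7 were found among the 19129 genes in the authors' expression table. The tumours were isografts, that is, tumour material grafted into genetically matched mice, and total RNA of the fresh tissue was sequenced. Tumours of 4 mice carried the label control and tumours of 4 mice the label MEKi, which stood for 7 days under trametinib, a drug that blocks the MEK kinases upstream of ERK. Strain, age and tumour genotype of the mice, the graft site, and what the control mice received, are not stated in the labels.

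Colony stimulating factors are secreted proteins that keep myeloid cells alive and make them divide and mature. The products of Csf1 and Il34 both bind the receptor encoded by Csf1r, on which most tissue macrophages depend. The product of Csf2, known as GM-CSF, acts on macrophages, granulocytes and dendritic cells through a receptor made of a specific alpha chain, encoded by Csf2ra, and a beta chain encoded by Csf2rb, which the receptors for interleukin 3 and interleukin 5 share. The product of Csf3, known as G-CSF, drives the formation of neutrophils through the receptor encoded by Csf3r. In pancreatic cancer, tumour cells and fibroblasts are known sources of the ligands.

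Reads in genes ranged from 20090101 to 38569550 per library. In bulk tissue, fewer cells of a type and less RNA per cell cannot be told apart. The most similar pair of libraries, control 4 and MEKi 1, crossed the labels. MEKi 4 stood apart: each of its 7 pairs differed by 19.6 to 37.8 times the sampling noise (median squared deviation), against 4.38 to 17.7 for the 21 pairs of the other libraries. This multiple rises with read depth, and MEKi 4 was the deepest library, with 38569550 reads. Its array weight in limma was the lowest, 0.392. Dusp6, a gene that ERK signalling switches on and thus a check of the drug label, read 12.19, 12.14, 9.31 and 9.24 for control replicates 1 to 4, against 8.88, 12.12, 12.20 and 11.01 for MEKi replicates 1 to 4, so high and low tumours were found under both labels and the label was not borne out by this gene. Every difference given is therefore one between labels. The mean of 8 epithelial markers was between 12.64 and 13.51 in every library, with MEKi 4 lowest, while the mean of 11 acinar markers ranged from 5.99 in MEKi 3 to 16.84 in control 3, with control 2 next at 15.18. These expression values are log2-like and variance-stabilised, and a step of 1 means roughly a doubling where reads are many and a larger fold where reads are few.

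Levels of different genes were compared per length, as reads recovered from the values, scaled between libraries by the size factors implied by the authors' values and divided by the kilobases of annotated exon. The receptor gene Csf3r had the highest level of the 7, with a median of 494 scaled reads per kilobase over the 8 libraries and a range from 163 to 533. Csf1 followed with a median of 369 (range 244 to 429) and Il34 with 318 (297 to 466). Both chains of the GM-CSF receptor had nearly the same level, Csf2rb with a median of 258 (131 to 374) and Csf2ra with 256 (145 to 453). The ligand genes Csf3 and Csf2 were the lowest, with medians of 92.4 (24.4 to 189) and 26.9 (2.28 to 77.5). For comparison, the macrophage receptor gene Csf1r had a median of 700 scaled reads per kilobase (609 to 1155). Neighbours in this order were compared within libraries by a two-sided exact sign-flip permutation test, whose smallest p is 0.0078, with Benjamini-Hochberg adjustment over 6 pairs. Csf2ra exceeded Csf3 by 3.22-fold and Csf3 exceeded Csf2 by 3.82-fold, each in 8 of 8 libraries (adjusted p = 0.0156 by the exact test). Il34 exceeded Csf2rb by 1.32-fold in 8 of 8 libraries (exact adjusted p = 0.0156), but this order turned when the length of the longest transcript was used (mean log2 ratio -0.04). Csf3r and Csf1 (exact adjusted p = 0.434), Csf1 and Il34 (0.938) and Csf2rb and Csf2ra (0.591) did not differ beyond their spread.

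**Figure D1:**
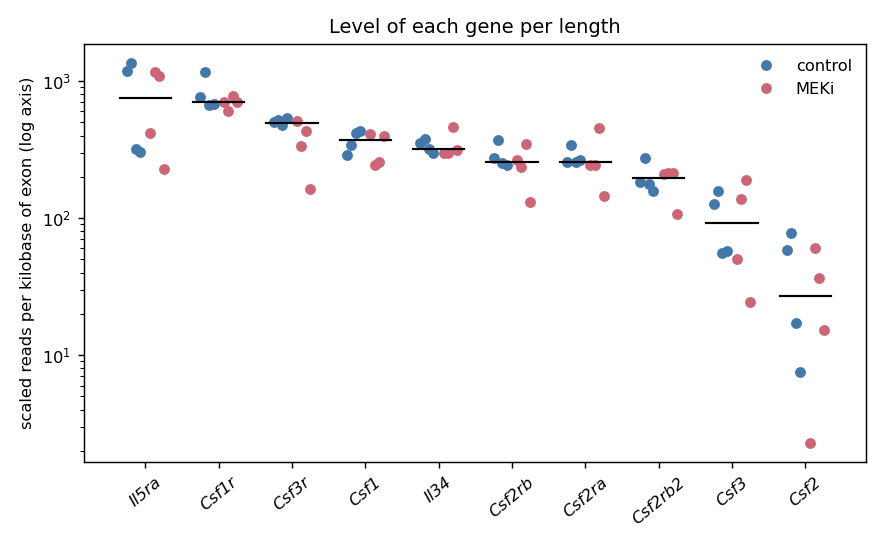
Scaled reads per kilobase of exon (log axis) for the 7 genes and the partner genes Il5ra, Csf1r and Csf2rb2, ordered by the median over the 8 libraries (black lines); blue points are control libraries and red points MEKi libraries. Csf2 and Csf3 lie lowest and spread most of the 7, while Il34 spreads least.

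None of the 7 genes passed the test between the labels. By limma, 0 of the 7 were called over all genes tested, against a background of 0.00523% (1 gene, lower), and 0 had an unadjusted p under 0.05, against 1.77% of all genes (0.465% higher and 1.3% lower). Limma voom on the recovered reads also called 0 of the 7. For none of the 7 did the labels separate completely, against 1.27% of all genes (0.565% higher and 0.701% lower). Means were lower under the MEKi label for 6 of 7 members, with a median difference of -0.19, against 48.4% of all genes and a median of 0.01. With one library left out, this count ranged from 4 of 7 (without MEKi 1 or MEKi 4) to 7 of 7 (without control 3, control 4 or MEKi 3). The 95% intervals were wide for Csf2, Csf3 and Csf3r, whose lower ends lay at -0.95, -1.05 and -1.22, and narrowest for Il34.

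**Figure D2:**
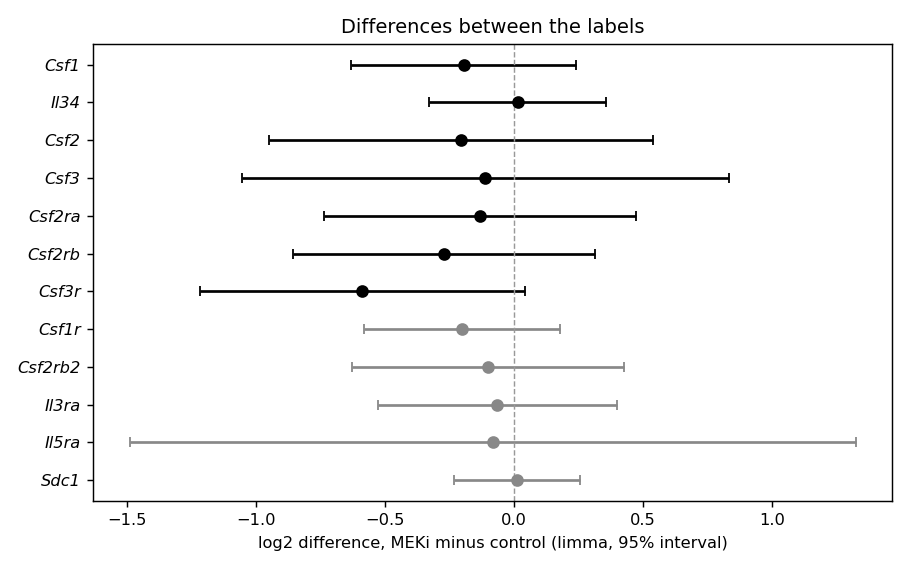
Log2 difference, MEKi minus control, with the 95% interval from limma, for the 7 members (black) and 5 measured partner genes (grey). Every interval spans 0, and that of Csf3r only just does, from -1.22 to 0.04.

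Among the ligand genes, libraries of both labels overlapped throughout. Csf1, which encodes the main macrophage growth factor (chromosome 3, 107741048 to 107760469 of GRCm38), had control values of 10.64, 10.88, 11.14 and 11.19 (replicates 1 to 4 throughout) and MEKi values of 11.12, 10.41, 10.48 and 11.07. Low and high libraries stood under both labels, with control 1 and 2 and MEKi 2 and 3 the lowest 4 of the 8. The log2 difference, MEKi minus control, was -0.19 (SE 0.19, 95% interval -0.63 to 0.24, limma adjusted p = 0.99961, the value for all 7 members). Il34, which encodes the other ligand of the same receptor (chromosome 8, 110741829 to 110805924), had control values of 9.56, 9.66, 9.44 and 9.34 and MEKi values of 9.36, 9.34, 9.94 and 9.42. MEKi 3 stood above all others, and the others lay between 9.34 and 9.66. Its difference was 0.02 (95% interval -0.33 to 0.36), and it turned to -0.13 without MEKi 3, to -0.04 without control 4 and to -0.01 without control 3.

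In scaled reads, Csf2 and Csf3 had the widest fold range of the members, while on the variance-stabilised scale Csf3r and Csf2ra spanned more than Csf2. Csf2 (chromosome 11, 54247271 to 54249667) had control reads of 42, 72, 10 and 5 and MEKi reads of 2, 38, 36 and 19. Exact Poisson 95% intervals, which cover counting error only, ran from 0.242 to 7.22 for the 2 reads of MEKi 1 and from 56.3 to 90.7 for the 72 reads of control 2, so the libraries differed by more than counting error. On the variance-stabilised scale the values were 6.71, 6.92, 6.01 and 5.71 under the control label and 5.45, 6.73, 6.40 and 5.96 under the MEKi label. The label difference of Csf2 was -0.20 (SE 0.33, 95% interval -0.95 to 0.54), and -0.86 with limma voom on the recovered reads, a scale that does not pull low genes together. It was 0.025 without MEKi 1. Csf3 (chromosome 11, 98701263 to 98703629) had control reads of 162, 258, 57 and 67 and MEKi reads of 78, 152, 327 and 54. Its values of 7.93, 8.17, 7.12 and 7.15 against 7.04, 8.01, 8.38 and 6.50 spanned a 7.75-fold range of scaled reads, with the highest and the lowest library both labelled MEKi. The difference was -0.11 (SE 0.42, 95% interval -1.05 to 0.83), or -0.41 with voom. Leaving out any 1 of 4 libraries turned its sign, to 0.22 without MEKi 4, 0.08 without control 2, 0.04 without MEKi 1 and 0.004 without control 1.

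**Figure D3:**
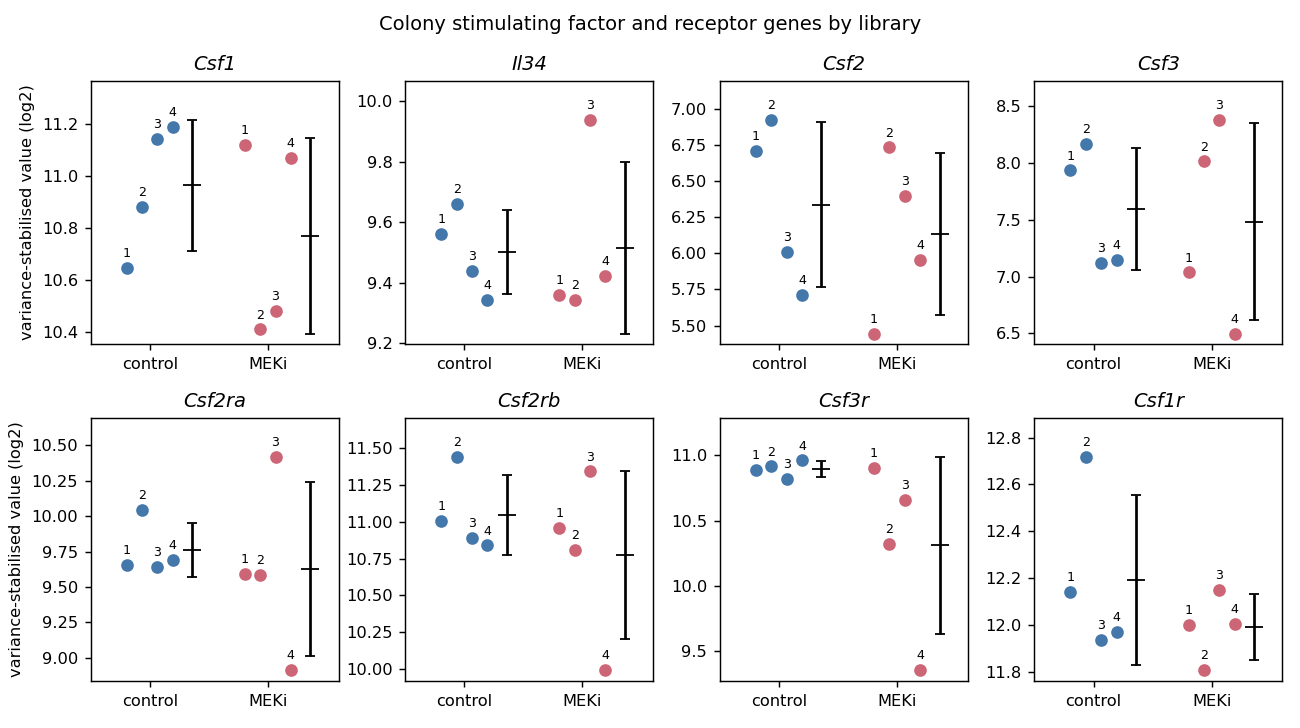
Variance-stabilised log2 values of the 7 genes and of Csf1r in each library; points are libraries with their replicate number, and black marks are the mean and SD of 4 libraries. Each vertical axis has its own range. Both labels overlap for every gene, and MEKi 4 is the lowest library for Csf3, Csf2ra, Csf2rb and Csf3r.

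Csf2 and Csf3 also stood apart from the other members in the 3' untranslated ends of their mRNAs, the place where AU-rich letters are known to make cytokine mRNAs short-lived. These stretches are shown because Csf2 and Csf3 held more of these letters per length than the other 5 members. Each line gives the 30 bases richest in ATTTA, read 5' to 3' on the gene's strand from GENCODE transcripts of GRCm38, at chr11:54247329-54247358 (minus strand) for Csf2 and chr11:98702984-98703013 (plus strand) for Csf3. Capitals mark ATTTA.
Csf2: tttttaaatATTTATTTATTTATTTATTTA
Csf3: gatagtttATTTAtctctATTTAatATTTA
In the longest coding transcript, Csf2 held 9 matches to ATTTA in 317 bases after the stop codon, or 28.4 per kilobase, a density that 0.074% of 14880 genes with an annotated 3' end reached. The longer motif TTATTTATT, which overlaps with ATTTA, was found 4 times in Csf2, a count that 0.228% of genes reached, while 7.77% of genes held at least 1. Csf3 held 6 matches to ATTTA in 669 bases (8.97 per kilobase, reached by 1.09% of genes) and 0 of the longer motif. Csf1 held 4 in 2111 bases, Il34 held 1 in 605 bases, and Csf2ra, Csf2rb and Csf3r held 0. At least 1 ATTTA was present in 68.7% of genes. Only the sense strand was searched, since the motif is read in RNA, and a match is a run of letters and not a measured site.

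The same 4 libraries, control 1 and 2 and MEKi 2 and 3, were the highest 4 for Csf2 and for Csf3 and the lowest 4 for Csf1. The level of Csf1 per kilobase was 0.553 to 0.909 times that of Il34 in these 4 libraries and 1.25 to 1.44 times in the others. With the length of the longest transcript, Csf1 exceeded Il34 in control 2 as well (435 against 412). It stayed below Il34 in control 1 and MEKi 2 and 3. The split of the libraries was noticed in the values and is given as a description. It had a wide background, since the same 4 libraries were highest for 6.59% and lowest for 7.38% of all 19129 genes. They were highest for all 10 of the ERK output genes, among them Dusp6 and the feedback inhibitor gene Spry4. Among 12 measured inducers and mRNA regulators of these cytokines, the 4 libraries were highest for 6, namely Il1a, Il1b, Tnf, Il1r1, Rela and Zfp36, and lowest for Nfkbia. Il1a, which encodes a form of interleukin 1, a cytokine known to induce Csf2 and Csf3, had control values of 8.57, 8.50, 7.13 and 7.34 and MEKi values of 7.25, 8.46, 8.05 and 7.54. Il1b followed with 10.96, 10.98, 10.004 and 10.49 against 10.10, 10.93, 10.60 and 9.66. Zfp36, whose product binds AU-rich ends and speeds mRNA decay, was also highest there, with 9.86, 10.18, 9.33 and 9.50 against 9.45, 9.87, 9.80 and 9.75. The same 4 libraries were also highest for 3 of 19 receptor signalling genes, 2 of 11 myeloid transcription factors, 2 of 6 endothelial, 2 of 11 macrophage, 2 of 13 neutrophil, 2 of 8 mast cell and 1 of 8 dendritic cell markers. The mean of all 6 endothelial markers was 9.54, 9.57, 8.70 and 8.37 under control and 8.44, 9.13, 9.07 and 8.68 under MEKi. This mean was thus also highest in the same 4 libraries. The part of any of these cells in the pattern of Csf2 and Csf3 was not tested.

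**Figure D4:**
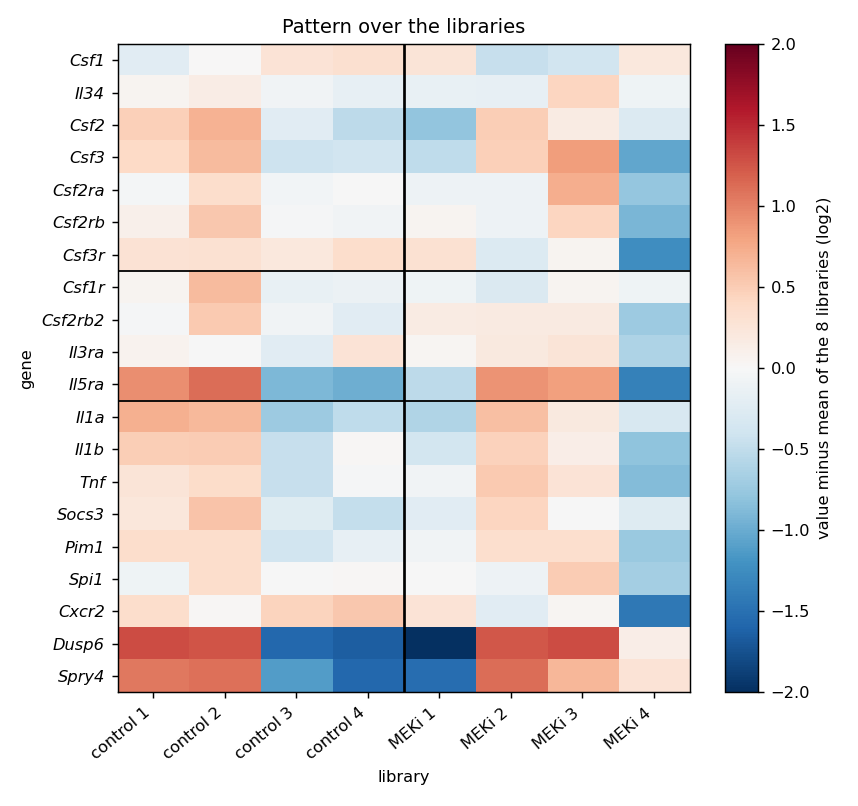
Value minus the mean of the 8 libraries (log2, colour) for each gene (rows) in each library (columns; the vertical line parts control from MEKi). Rows are the 7 members, 4 receptor partners and 9 genes of the other lists; the colour of values beyond 2 is capped. Csf2, Csf3, Il5ra, Il1a and Dusp6 are high in control 1 and 2 and MEKi 2 and 3, and Csf1 is low there.

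The 3 receptor genes had lower means under the MEKi label, and in each case MEKi 4, the library that stood apart from all others, was the lowest. Csf3r, the G-CSF receptor gene (chromosome 4, 126024550 to 126044440), had control values of 10.89, 10.91, 10.82 and 10.96 and MEKi values of 10.90, 10.32, 10.66 and 9.35. The control libraries were almost level (SD 0.06, n = 4), the MEKi libraries were not (SD 0.68, n = 4), and MEKi 1 lay within the control range. The difference of -0.59 was the largest of the 7 (SE 0.28, 95% interval -1.22 to 0.04, limma adjusted p = 0.99961, unadjusted p = 0.0648), with 3 of 4 MEKi libraries below every control library. It was -0.27 without MEKi 4. Csf2ra (chromosome 19, 61223957 to 61228429) had 9.65, 10.04, 9.64 and 9.69 against 9.59, 9.59, 10.42 and 8.91, with MEKi 3 highest and MEKi 4 lowest of all 8. Its difference was -0.13 (95% interval -0.74 to 0.47), and 0.11 without MEKi 4. Csf2rb (chromosome 15, 78325752 to 78353847) had 11.01, 11.44, 10.89 and 10.84 against 10.96, 10.81, 11.34 and 9.99. Its difference was -0.27 (95% interval -0.86 to 0.32), and -0.01 without MEKi 4. MEKi 4 also had the lowest mean of the 13 measured neutrophil markers, 7.12 against 8.19 to 9.34 in the other 7 libraries, while its macrophage mean of 10.71 lay inside the range of the others. The part of these cells in the receptor values was not tested.

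Partner genes of the receptors were taken from a list of 8, of which 5 were measured and 0 were called. Csf1r, which completes the macrophage ligand and receptor set, had control values of 12.14, 12.72, 11.94 and 11.97 and MEKi values of 12.002, 11.81, 12.15 and 12.01, a difference of -0.20 (SE 0.17), and -0.03 without control 2. Csf2rb2 encodes a second mouse beta chain, used by the interleukin 3 receptor, and is a close copy of Csf2rb on the same chromosome (78282507 to 78305721), so the split of reads between both is uncertain. Csf2rb exceeded it by 1.115- to 1.625-fold per kilobase in all 8 libraries. The difference of Csf2rb2 was -0.10 (SE 0.24), that of the interleukin 3 receptor alpha gene Il3ra was -0.06 (SE 0.21), and that of the syndecan gene Sdc1, whose product can bind interleukin 34, was 0.01 (SE 0.11). Il5ra, the interleukin 5 receptor alpha chain gene, was the partner with the widest range. It had control values of 12.07, 12.26, 10.24 and 10.16 and MEKi values of 10.62, 12.04, 11.96 and 9.80, again with control 1 and 2 and MEKi 2 and 3 highest, and a label difference of -0.08 (95% interval -1.49 to 1.33). Per kilobase its median of 757 stood above that of every member and of Csf1r. Eosinophils are known to carry this receptor. The mean of the 3 measured of 7 eosinophil markers (Siglecf, Ccr3 and Ear2) was 7.40, 8.23, 7.56 and 7.26 in the control and 7.27, 7.27, 8.54 and 7.18 in the MEKi libraries, and the part of these cells in the values of Il5ra was not tested.

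No other gene listed for the pathway passed the test between the labels. Of 12 measured inducers and mRNA regulators (13 listed), 19 receptor signalling genes and 11 myeloid transcription factors, limma called 0, and 0 had an unadjusted p under 0.05. Their median differences were 0.00, 0.08 and 0.02. The genes with the smallest p in these lists were Zc3h12a, which encodes an RNase that cuts cytokine mRNAs (-0.22, SE 0.16), Cish, a feedback inhibitor induced by STAT5 (0.22, SE 0.13), and Cebpb, a factor of emergency granulopoiesis (-0.27, SE 0.19). Each was smaller without 1 library, Zc3h12a at -0.13 without control 2, Cish at 0.13 without MEKi 4 and Cebpb at -0.10 without control 1. Among cell markers, 9 of 11 macrophage genes and 11 of 13 neutrophil genes had lower means under the MEKi label, and 0 in each list had an unadjusted p under 0.05. The smallest p belonged to Adgre1, an adhesion receptor gene of macrophages (-0.42, SE 0.21), and to Cxcr2, a chemokine receptor gene of neutrophils (-0.68, SE 0.33). Adgre1 was at -0.26 without control 2, and Cxcr2 at -0.32 without MEKi 4. Without MEKi 4 the neutrophil mean was 8.58 under the MEKi label against 8.56 in the controls, with 8 of 13 genes lower. Without MEKi 3 it was 7.84 against 8.56, with 13 of 13 genes lower. The 8 dendritic cell markers had higher means under the MEKi label, a direction that rested on MEKi 3 (mean 8.70, against 7.12 to 7.90 in the other 7 libraries). Without MEKi 3, 7 of the 8 were lower, with a mean of 7.35 against 7.46 in the controls, and 0 had an unadjusted p under 0.05 over all libraries. The 10 fibroblast markers had lower means over all libraries (7 of 10 without control 2), and 1 of them, the podoplanin gene Pdpn, had an unadjusted p of 0.0336 by limma (adjusted 0.99961, -0.76).

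The receptor genes were then set against each other and against the cells known to carry them. In all, 12 relations were computed over the 8 libraries, with two-sided exact permutation p-values adjusted over the 12. For the 4 that involve Csf2 or Csf3 no pooled coefficient is given, a choice made with the values known. The same 4 libraries were highest for both genes, with a gap for Csf3 (7.93 against 7.15) and a smaller one for Csf2 (6.40 against 6.01). Csf1, for which these libraries were lowest, keeps its coefficients. Among the 4 relations left out, the lowest adjusted p for Pearson's r was 0.0603 (exact permutation test), for the neutrophil mean with Csf3. Csf2ra and Csf2rb had Pearson's r = 0.93 (exact permutation p = 0.0044, adjusted 0.0524) and Spearman's rho = 0.81 (exact p = 0.0218, adjusted 0.11). Without the 2 libraries farthest from the median of Csf2ra, MEKi 3 and MEKi 4, r was 0.93 (exact p = 0.0778, n = 6), and the adjusted p fell to 0.0444 without MEKi 3 and to 0.044 without control 3. Csf3r and the mean of the neutrophil markers had r = 0.77 (exact p = 0.0662, adjusted 0.265) and rho = 0.36 (exact p = 0.389, adjusted 0.571), and without MEKi 3 and MEKi 4 r was 0.55 (exact p = 0.311, n = 6). The relation depended on single libraries, since r was 0.05 without MEKi 4 alone and 0.94 without MEKi 3 alone. Il34 and the mean of the macrophage markers had rho = 0.93 (exact p = 0.0022, adjusted 0.0268) and r = 0.63 (exact p = 0.105, adjusted 0.29). Here MEKi 3 stood off the line, with the highest Il34 and only the third highest macrophage mean. Without MEKi 3, r was 0.96 (adjusted 0.0024 by the exact test), and without control 1 and control 2, the farthest from the median, it was 0.95 (exact p = 0.0014, adjusted 0.0167). With control 1 and control 2 left out, MEKi 3 was the highest library for both Il34 (9.94) and the macrophage mean (10.94). Single macrophage markers had r with Il34 from -0.001 (Lyz2) and 0.042 (Adgre1) up to 0.781 (Maf) and 0.86 (Mertk). The 8 dendritic cell markers, whose mean was highest in MEKi 3, had r from 0.588 (Siglech) to 0.957 (Cd209a). A high r with Il34 over the 8 libraries was thus not particular to macrophage genes. Il34 with Csf1r had r = 0.55 (exact p = 0.145, adjusted 0.29) and rho = 0.79 (exact p = 0.0279, adjusted 0.11), and r = 0.76 (exact p = 0.129) without control 2 and MEKi 3. Csf1 had no such relation, with r = -0.03 and rho = -0.24 for Csf1r (exact p = 0.967 and 0.582, adjusted 0.967 and 0.635, r = -0.51 without MEKi 2 and MEKi 3) and r = -0.21 and rho = -0.33 for the macrophage mean (exact p = 0.693 and 0.428, adjusted 0.756 and 0.571, r = -0.38 without control 1 and control 2). The macrophage mean had r = 0.52 and rho = 0.48 with Csf2ra (exact p = 0.206 and 0.243, adjusted 0.353 and 0.486, r = 0.68 without control 1 and control 2) and r = 0.63 and rho = 0.76 with Csf2rb (exact p = 0.126 and 0.0368, adjusted 0.29 and 0.11, r = 0.49 without the same libraries). Within a label each of these relations had only 4 libraries, too few for a value.

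**Figure D5:**
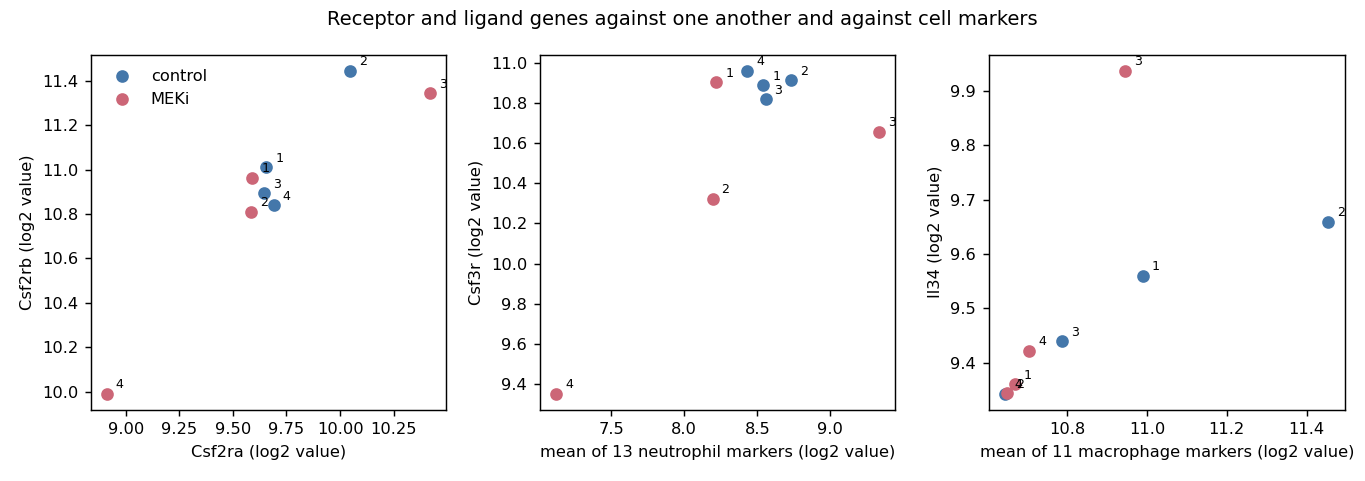
Log2 values of the 8 libraries (blue control, red MEKi, with replicate numbers): Csf2ra against Csf2rb, the mean of 13 neutrophil markers against Csf3r, and the mean of 11 macrophage markers against Il34. MEKi 4 lies alone at the lower left of the first and middle plots, and MEKi 3 lies above the other libraries in the last.

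Genes whose pattern over the 8 libraries was most like that of a member are given by Pearson's r, as a description over 13142 genes compared. Csf2 was left out, as its mean of 28 reads per library was under the limit of 50, and no coefficient is given for Csf3, whose values fall into separate sets of 4 libraries. The closest to Csf2ra were Fyn, Spi1 and Lcp1 (r = 0.99 each). Spi1 encodes PU.1, a transcription factor of myeloid cells, and had control values of 9.42, 9.85, 9.49 and 9.52 and MEKi values of 9.48, 9.40, 10.01 and 8.82. The closest to Csf2rb were Kctd17 (r = 0.99), which lies 74717 bases away on the same chromosome and strand, and the myeloid surface protein genes Treml2 and Clec10a (r = 0.98 each). The closest to Csf3r were the MHC gene H2-Q10, a member of a family of close copies whose reads are uncertain (r = 0.98), Cxcr2 (0.97) and Il1r2 (0.96), the decoy receptor gene of interleukin 1. For Csf1 they were Tspan11 (0.98), Gphn and Smtnl2 (0.97 each), and for Il34 Tbc1d8, Celf2 and Cd36 (0.97 each). Libraries share depth scaling and composition, and with 8 libraries and many genes, some high values arise in any search.

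Since Spi1 was among the genes most like Csf2ra, the promoters at hand were read for GAGGAAG, letters found in many PU.1 sites, a motif picked with the sequences in view. RefSeq windows of 300 bases (250 before to 50 after the start, GRCm38.p6) were at hand for 4 members. The receptor gene Csf2rb and the ligand genes Il34 and Csf3 had no window and were not read. The windows with a match are printed below. Each of these is given 5' to 3' on the gene's strand, with GAGGAAG in capitals, for Csf2ra at chr19:61228369-61228668 (minus strand) and Csf3r at chr4:126024409-126024708 (plus strand).
Csf2ra: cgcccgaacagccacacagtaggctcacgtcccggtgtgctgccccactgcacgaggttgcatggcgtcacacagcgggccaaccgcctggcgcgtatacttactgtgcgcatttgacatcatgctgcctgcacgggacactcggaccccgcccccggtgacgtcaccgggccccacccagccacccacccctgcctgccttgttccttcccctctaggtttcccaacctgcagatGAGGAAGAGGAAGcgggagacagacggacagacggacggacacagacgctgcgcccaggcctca
Csf3r: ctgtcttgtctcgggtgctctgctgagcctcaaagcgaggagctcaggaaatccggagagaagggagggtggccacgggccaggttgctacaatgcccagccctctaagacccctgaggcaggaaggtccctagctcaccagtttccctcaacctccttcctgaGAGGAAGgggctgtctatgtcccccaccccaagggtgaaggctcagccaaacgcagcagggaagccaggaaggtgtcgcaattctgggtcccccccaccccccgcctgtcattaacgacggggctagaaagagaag
Csf2ra held 2 matches, which share 1 base, and Csf3r held 1, while the windows of the ligand genes Csf1 and Csf2 held 0 on both strands. The RefSeq window of Csf2 lies upstream of the GENCODE start. In the window of Csf3r, the match lies after the GENCODE start at 126024550, inside the annotated gene. At least 1 match on either strand was present in 13.6% and at least 2 in 1.31% of 32851 windows. Since the motif was picked with these sequences in view, the shares do not measure how unusual the matches are. A match describes these letters only and says nothing of binding in the tumours.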

How the data were processed

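Total RNA of 8 tumours was sequenced as stranded libraries, per the labels' protocols. STAR 2.5.3a, DESeq2 1.18.1 and GRCm38 are named in the submitters' processing notes, while no source used here states the counting step, the annotation or the table's filter. The authors deposited log2 values, variance-stabilised per the file name. Inverting that transformation from the lowest value, 5.12, gave whole reads (within 0.01) for 100% of values. Of 19431 rows, 32 name no gene (0.101% to 0.167% of reads) and were left out, and the most abundant row stood for each of 86 symbols listed more than once. For 19129 genes limma 3.58.1 in R 4.3.3 (lmFit, eBayes with a trend, no covariates) was run two-sided with Benjamini-Hochberg adjustment and a threshold of 0.05. Exon lengths and coordinates are from GENCODE M21. On simulated data for the comparison of labels over 19129 genes, the test recovered 75.4% of 69 genes changed by 1 (log2). For 57 genes changed by 2 the share was 94.7%. Whether these shares hold for the measured libraries, where the SE was 0.33 for Csf2 and 0.42 for Csf3, was not tested.

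The members and gene lists were chosen with earlier results of these data known. Genes named are the members, their partner receptors, Dusp6, up to 3 genes of each list by smallest p, and the 3 genes most like each member with at least 50 reads on average, among the 75% of genes with the highest mean and a name other than a gene model (Csf3 is left out there for its separate sets). Genes named for having the same 4 libraries highest or lowest were chosen after their values were seen. Replicate numbers are shared by the labels, but nothing ties a number to an animal or day, and p-values measure the spread between these 8 mice. Alternatives were voom on the recovered reads, array weights, quantile normalization, robust moderation, aligned medians, a fit without the trend, the most abundant 75% of genes, all rows, an acinar covariate, a replicate block, each library left out and, chosen after seeing the data, both acinar-rich control libraries left out, and the counts of each gene list with each library left out. Python 3.11.15, scipy 1.17.1 and matplotlib 3.10.9 were used.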

Additional observations from a re-analysis of the deposited data

Results flagged for a closer look

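Of 36 groups of 4 libraries examined, 3 held a library whose gap to its nearest neighbour exceeded Dixon's 95% limit as a share of the group's range, and chance gives about 1 in 20 such groups. Il34 stood apart in MEKi 3, at 9.94 against 9.42 in the next highest MEKi library. Csf2ra stood apart in control 2, at 10.04 against 9.69 in the next highest control library. Csf2rb2 stood apart in MEKi 4, at 9.17 against 10.06 in the next lowest MEKi library.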

How the results depend on the processing

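Of 132 recomputed member differences, 121 kept their sign and 11 reversed, and 0 were called (lowest limma adjusted p = 0.984, for Csf3r without MEKi 1). Il34 turned with array weights (-0.0188) and the acinar covariate (-0.0282). Array weights also turned Csf2rb2 (0.0211), Il5ra (0.0087), Il3ra (0.04) and Dusp6 (-0.0368), the acinar covariate turned Sdc1 (-0.0053), and leaving out both acinar-rich controls turned Csf2rb2 (0.0753) and Sdc1 (-0.0196). With the sign kept, member differences moved by over 1.5 times with the acinar covariate (Csf1 -0.06, Csf3 -0.39, Csf2ra -0.30), with array weights (Csf3 -0.06, Csf2ra -0.06, Csf2rb -0.15, Csf3r -0.36), without both acinar-rich controls (Il34 0.06, Csf2 -0.08, Csf3 -0.06, Csf2ra -0.05, Csf2rb -0.15), with quantile normalization (Il34 0.03, Csf3 -0.05), with aligned medians (Il34 0.04) and with voom (Csf2 -0.86, Csf3 -0.41). Csf3r was -0.79 with the acinar covariate (limma unadjusted p = 0.037, adjusted 0.999).

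With one library left out, log2 differences ranged from -0.31 to -0.07 for Csf1, -0.13 to 0.0726 for Il34, -0.41 to 0.025 for Csf2, -0.41 to 0.22 for Csf3, -0.40 to 0.11 for Csf2ra, -0.46 to -0.01 for Csf2rb and -0.78 to -0.27 for Csf3r, and from -0.19 to 0.12 for Csf2rb2, -0.42 to 0.35 for Il5ra, -0.16 to 0.13 for Il3ra, -0.0381 to 0.0653 for Sdc1, -0.16 to 1.06 for Dusp6, -0.30 to -0.13 for Zc3h12a, 0.13 to 0.28 for Cish, -0.36 to -0.10 for Cebpb, -0.89 to -0.32 for Cxcr2 and -0.59 to -0.26 for Adgre1. The 1 gene called over all genes became 0 with the 75% of genes, the acinar covariate or the replicate block, 4 without both acinar-rich controls, and 0 to 2 with one library left out. With the replicate block 0 members were called, and the correlation of deviations between same-numbered libraries ranged from -0.46 to 0.20.

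With the longest transcript the mean log2 ratio turned for Csf3r over Csf1 (-0.0164), Il34 over Csf2rb (-0.0432) and Csf2rb over Csf2ra (0.19). With one library left out it ranged from 0.19 to 0.49 for Csf3r over Csf1, where it passed the threshold without MEKi 4, and from -0.0593 to 0.14 for Csf1 over Il34. Quantile normalization gave r = 0.0226 for Csf1 with Csf1r and 0.93, now past the threshold, for Csf2ra with Csf2rb. Without the 2 libraries farthest from the median, r was 0.95 for Il34 with the macrophage mean. With one library left out, r ranged from -0.37 to 0.0581 for Csf1 with Csf1r, 0.49 to 0.89 for Il34 with Csf1r, 0.85 to 0.98 for Csf2ra with Csf2rb and 0.58 to 0.96 for Il34 with the macrophage mean, the last 3 past the threshold without MEKi 3 (Csf2ra with Csf2rb also without control 3). For Csf3r with the neutrophil mean, r ranged from 0.0518 (without MEKi 4) to 0.94 (without MEKi 3). The cause of these changes was not tested. Csf2, with 2 to 72 reads per library, is limited by depth, and it fell below the filter of the 75% of genes, so that this alternative gave it no value.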
